A study of Mus musculus with 12 samples.

Results

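The 11 hippocampal RNA samples of an Illumina mouse whole-genome BeadChip experiment fell into 2 sides according to how much signal of neighbouring brain regions they held, and 5 of the 11 animals (6 of the 12 arrays) formed the high side described here against the other 6. The sides were chosen by measured values of these same arrays: mutants 2, 4 and 6 and controls 3 and 4 were placed high, and mutants 1, 3 and 5 and controls 1, 2 and 5 low, on a gradient of thalamus, striatum and cortex genes. Every difference between the sides is therefore given as a description, with a standard error (SE) and with no test. The mean of the thalamus, striatum and neocortex lists used here, centred over the animals, was 0.60, 0.75 and 0.06 in mutants 2, 4 and 6 and 0.78 and 1.09 in controls 3 and 4 (log2). On the low side it ran from -0.74 in control 5 to -0.36 in mutant 5. Mutant 6 at 0.06 and mutant 5 at -0.36 were thus the animals just inside and just outside the division. In mutant 6 the thalamus, striatum and neocortex list means were -0.35, -0.08 and 0.60, so only the neocortex list made its mean positive.

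Mutants were TIF-IA flox/flox; CaMKCreERT2 mice, in which a Cre recombinase driven by the Camk2a promoter, active in forebrain excitatory neurons, and switched on by tamoxifen deletes a floxed part of Rrn3. This gene encodes TIF-IA, which RNA polymerase I needs to start transcription of ribosomal RNA. Controls were TIF-IA flox/flox littermates without Cre according to the methods of the study and wildtype according to the sample labels. All were C57Bl/6N mice that received tamoxifen as young adults, at 2 months of age, and total RNA was taken 4 weeks after tamoxifen from vibratome sections of the hippocampus, 1 animal a sample. Mutant 6 alone was measured on 2 arrays, and the mean of both was used. The high side held 3 mutants and 2 controls and the low side 3 mutants and 3 controls.

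The hippocampus is built of a few dense layers of excitatory neurons, the granule cells of the dentate gyrus and the pyramidal cells of fields CA1, CA2 and CA3, which use the vesicular glutamate transporter Slc17a7. The thalamus lies directly beneath it and the striatum in front of and beside the thalamus. Thalamic relay neurons express the Wnt effector Tcf7l2 and the glutamate transporter Slc17a6, striatal projection neurons are GABAergic and express dopamine receptors and neuropeptides, and the fibre tracts between these regions are rich in oligodendrocytes, whose myelin holds Mbp. A section of hippocampus can carry more or less of each of these neighbours.

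Across all 45135 probes, 332 (0.736%) were called higher and 221 (0.49%) lower on the high side, where called means that no animal of one side overlapped the other side and that the difference, adjusted for genotype, was at least 0.5 on the log2 scale. Read at the brightest probe of each of 19031 named genes, 210 genes (1.1%) were called higher and 119 (0.625%) lower, and the median difference over all genes was -0.01. Without mutant 6 the counts of genes were 397 (2.09%) higher and 192 (1.01%) lower. These shares follow from the way in which the animals were divided and are the background against which the gene lists below stand. At least 2-fold differences were seen for 150 of the probes called higher and 37 of those called lower. Without background correction 197 probes were called higher and 90 lower, and the deposited log2 values gave 214 and 90. Median intensities per animal overlapped between the sides but were not alike. They ran from 83.1 to 107 on the high side (middle value 105.6) and from 92.6 to 107 on the low side (94.7). Control 4 and mutants 4 and 6 (high) and mutant 5 and control 5 (low) had 104 to 108 per array. All other animals had 83.1 to 95.5. The part of this signal level in the differences was not tested. Probes detected (detection p-value under 0.01) numbered 19193 to 21889 on the high side (middle value 19621) and 20165 to 21408 on the low side (20430). Both sides contained 1 animal with low Xist and high Eif2s3y (control 4 and mutant 3), a pattern known from male mice.

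The markers Tcf7l2 and Prkcd lay above the low side in 4 of the 5 high-side animals and not in mutant 6. Tcf7l2, the transcription factor that marks postmitotic thalamic neurons, had log2 signals of 9.28, 9.09 and 6.62 in mutants 2, 4 and 6 and of 9.33 and 10 in controls 3 and 4. On the low side it ranged from 6.73 to 7.19 with a median of 6.96. The 4 high animals lay well above every low-side animal, while mutant 6 had the lowest Tcf7l2 signal of all 11. The side means were 8.86 ± 1.3 (SD, n = 5) and 6.95 ± 0.16 (SD, n = 6), a difference of 1.97 (SE 0.46), and without mutant 6 the difference was 2.47 (SE 0.16) with no overlap.

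Prkcd, a protein kinase C isoform abundant in thalamic relay cells, reached 10.98, 10.89 and 7.29 in mutants 2, 4 and 6 and 8.76 and 12.11 in controls 3 and 4, against 6.83 to 8.75 (median 7.74) on the low side. Mutant 6 again lay within the low side, which made the sides overlap, and control 3 was barely above control 1 (8.75). The means were 10.01 ± 1.94 (SD, n = 5) and 7.73 ± 0.68 (SD, n = 6), and the difference was 2.33 (SE 0.78).

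Mbp, which encodes myelin basic protein, had signals at its brightest probe of 14.56, 14.85 and 14.33 in mutants 2, 4 and 6 and 14.48 and 14.64 in controls 3 and 4, and of 13.79 to 14.35 (median 14.02) on the low side. Only mutant 6 overlapped, by lying just under mutant 1. The difference of 0.54 (SE 0.11) corresponded to 1.45-fold. The 5 named probes of Mbp did not all point one way: 2 of the dimmer ones did not overlap and differed by 0.77 and 1.19, whereas another differed by -0.28.

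**Figure D1:**
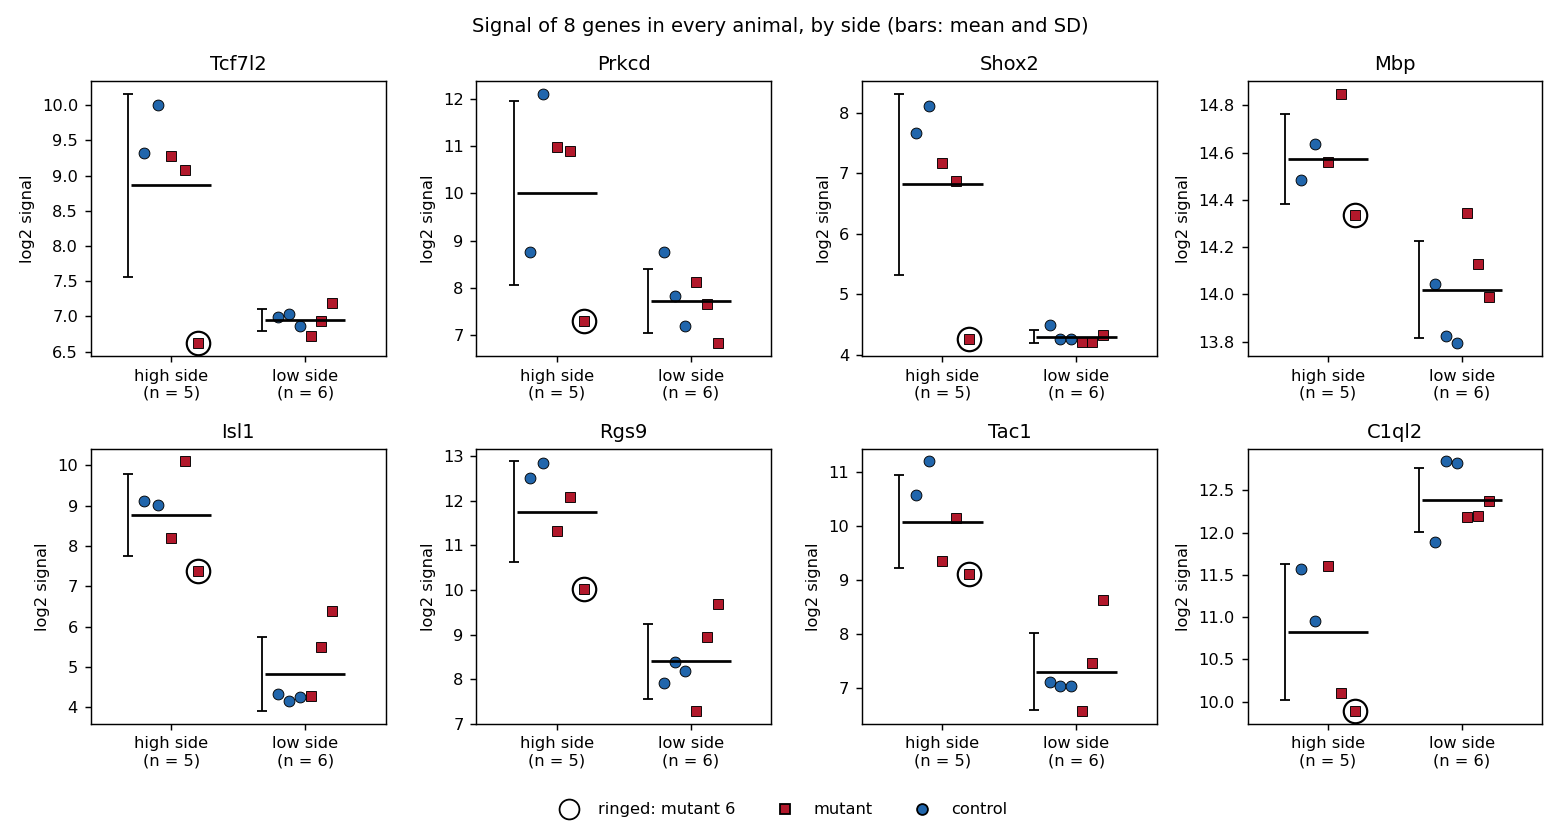
Log2 signal of 8 genes (one panel each, vertical axis in log2 units) in the 5 high-side and 6 low-side animals, with mutants as squares, controls as circles, mutant 6 ringed, and the mean and SD as bars. Mutant 6 lies below the low-side animals for Tcf7l2, among them for Prkcd and Shox2, above them for Isl1, Rgs9 and Tac1, and below them for C1ql2, whose high-side values of 9.88 to 11.61 all lie under the low-side values of 11.89 to 12.84.

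Of the 19 thalamus genes with a named probe, all 19 had a positive difference and the median was 1.43, but only 3 were called higher: Gbx2, Rgs16 and Rora. However, 6 of the 19 were detected in fewer than 5 animals. Plekhg1 (0.08) and Ptpn3 (0.07) were detected in 0 animals, so their signs carry little weight. Gbx2, a homeobox gene of the developing thalamus, had signals of 7.72, 7.86 and 5.80 in mutants 2, 4 and 6 and of 9.31 and 9.65 in controls 3 and 4. Its low-side values lay between 4.14 and 5.51, where 1 of 6 animals was detected. With a difference of 3.55 (SE 0.56), it was the member that separated the sides most, although mutant 6 exceeded mutant 5 by little. Shox2, a homeobox gene of thalamic neurons, was detected in the other 4 high-side animals at 6.87 to 8.11 and in none of the low side, and mutant 6 at 4.26 was not well above background either. The high-side mean was at least 5.13-fold above the detection limit on the low side. Slc17a6, the vesicular glutamate transporter VGLUT2, was 10.48 in mutant 6 and 11.64 to 12.07 in the other high-side animals, and mutant 3 at 11.17 was the only low-side animal above mutant 6. Rgs16 and Rora, a regulator of G protein signalling and a nuclear receptor of relay neurons, differed by 2.06 (SE 0.39) and 1.43 (SE 0.29).

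Mutant 6 exceeded every low-side animal for Gbx2, Rgs16 and Rora, and also for Foxp2, a forkhead factor at 5.55 against at most 4.90, and Cacna1g, the T-type calcium channel of relay cell bursting, at 8.53 against at most 8.30. For Foxp2 (4.67) and Cacna1g (8.27) it was control 3 that lay within the low side. For most other members mutant 6 decided the overlap. Leaving it out, 12 of the 19 thalamus genes were called higher, with a median difference of 1.61. It was the lowest of the high side for 14 of the 19 genes. Expressed as its place between the low-side mean (0%) and the mean of the other high-side animals (100%), over the 12 genes called without it, mutant 6 stood at a median of 13.1% of the way. Gene by gene its place ran from -22.1% to 42.2%. The other high-side animals both selected these genes and set the 100%, which favours a low place for mutant 6. Its 2 arrays, compared over the whole list, lay at -0.37 and -0.33 against a range of -0.82 to -0.40 on the low side and 0.66 to 1.54 in the other high-side animals, so both arrays placed mutant 6 near the low side. The correlation of the pair over the 20626 probes with detection in 5 or more animals was 0.992.

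Striatal genes held all 5 high-side animals apart from the low side more often than thalamic genes did, by count. Of 15 striatum genes, 14 had a positive difference, 9 were called higher (14 without mutant 6), and the median difference was 2.29. Isl1, a LIM homeobox gene of striatonigral neurons, stood at 8.20, 10.09 and 7.39 in mutants 2, 4 and 6 and at 9.11 and 9.02 in controls 3 and 4. On the low side it was detected in 2 of 6 animals and ranged from 4.16 to 6.39 (median 4.31), the 2 highest being mutants 3 and 5. No animal overlapped, and the difference was 3.91 (SE 0.54), measured against a low side mostly near background.

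Rgs9, which speeds the deactivation of G proteins downstream of dopamine receptors, had signals of 11.32, 12.08 and 10.02 in mutants 2, 4 and 6 and of 12.52 and 12.86 in controls 3 and 4, against 7.27 to 9.69 (median 8.28). Its difference was 3.40 (SE 0.54). Scn4b, a sodium channel beta subunit, reached 10.92, 11.19, 8.98, 11.83 and 12.31 in the same order against 7.12 to 8.70, a difference of 3.18 (SE 0.52). In both genes mutant 6 came next to mutant 5, the highest low-side animal. A dimmer probe of Rgs9 differed by 3.28 (SE 0.46) without overlap. The dimmer probe of Scn4b, detected in 10 animals, differed by only 0.06 (SE 0.28) with overlap.

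Neuropeptides and signalling proteins of both classes of projection neuron followed. Tac1, the substance P precursor of the direct pathway, differed by 2.81 (SE 0.43), with high-side signals from 9.12 to 11.20 and low-side signals from 6.56 to 8.62. Penk, the enkephalin precursor of the indirect pathway, differed by 1.96 (SE 0.35), from 7.26 to 9.29 against 5.64 to 6.92. Ppp1r1b (DARPP-32), the dopamine-regulated phosphatase inhibitor, differed by 2.46 (SE 0.42), and Rarb, the retinoic acid receptor beta, by 2.29 (SE 0.34). Six3 and Gpr6 were called too. Both were detected in 4 of 5 high-side animals and in 0 of 6 on the low side, so only bounds can be given, at least 2.21-fold and at least 1.99-fold higher. The dopamine receptors Drd1 and Drd2 differed by 2.24 (SE 0.52) and 3.11 (SE 0.58) but overlapped, since Drd1 in mutant 6 (8.56) lay under control 2 (8.68) and Drd2 in mutant 6 (5.92) under mutant 5 (6.34). Without mutant 6 both genes were free of overlap.

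For the 14 striatum genes called without it, mutant 6 stood at a median of 39.4% of the way from the low side to the other high-side animals (-37.8% to 60.2%). These genes too were selected by the other high-side animals, which favours a low place for mutant 6. It was the lowest of the high side in 14 of the 15 genes. Mutant 5 was the highest low-side animal in 8 of 15. The list mean was -0.08 in mutant 6 and -0.38 in mutant 5, against 0.74 to 2.09 in the other high-side animals and -1.28 to -1.05 in the other low-side animals. The 2 animals at the division were thus nearer to each other in striatal signal than either was to the rest of its own side.

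**Figure D2:**
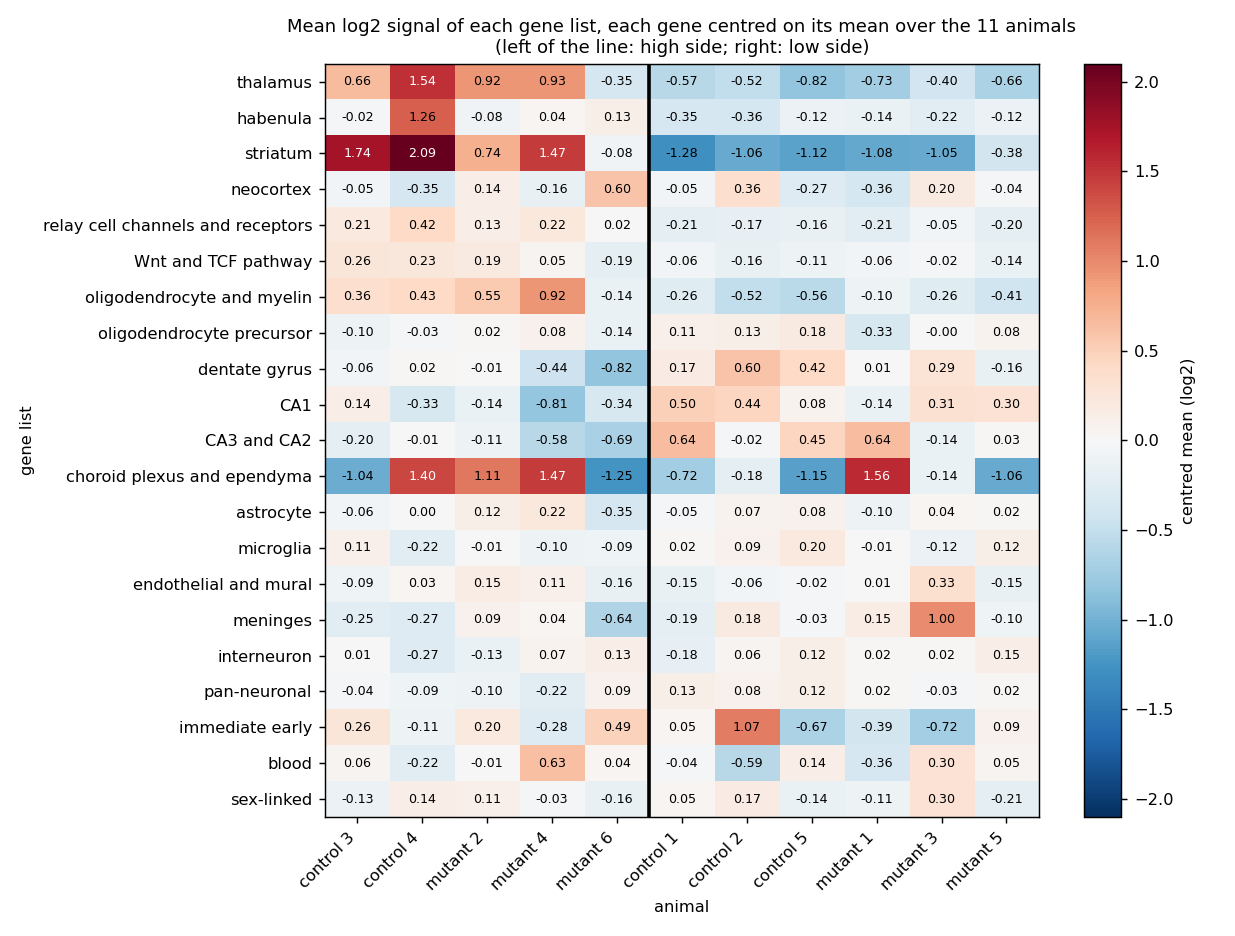
Mean log2 signal of each gene list (rows) in each animal (columns), with every gene centred on its mean over the 11 animals and high-side animals left of the line. The striatum row is positive in 4 high-side animals and -0.08 in mutant 6, the thalamus row is -0.35 in mutant 6, and the choroid plexus row is high in animals of both sides.

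Neocortex genes pointed both ways, although cortex had been part of the gradient. Of 11 genes, 0 were called in either direction, 5 differences were positive and 6 negative, and the median was -0.02. Ccn2, a matricellular gene of the deepest cortical layer, differed by 1.26 (SE 0.40), Myl4 by 0.98 (SE 0.36) and Fezf2, a regulator of corticofugal neurons, by -1.0 (SE 0.33), and all 3 overlapped. The layer markers Cux2 and Rorb were higher by 0.46 (SE 0.12) and 0.55 (SE 0.12) with a narrow overlap, 7.32 to 8.11 against 6.74 to 7.36 for Cux2 and 6.55 to 6.85 against 5.91 to 6.56 for Rorb. Other members went the other way with overlap: Scnn1a by -0.75 (SE 0.23), Nr4a2 by -0.57 (SE 0.51) and Tbr1 by -0.32 (SE 0.37). Without mutant 6 Fezf2 did not overlap (-1.23, SE 0.29) and was the 1 member called lower, with 0 called higher. Mutant 6 differed from the rest of its side in the neocortex list. It had the highest high-side signal for 7 of the 11, and its list mean of 0.60 was the highest of all 11 animals.

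Channels and receptors described in relay cells were mostly alike on both sides: of 16 genes, 3 were called higher and the median was 0.07. The 3 were Gabrd, the delta subunit of extrasynaptic GABA-A receptors, Chrna4, a nicotinic receptor subunit, and Grm4, a presynaptic metabotropic glutamate receptor. Gabrd was 9.26, 9.33 and 9.22 in mutants 2, 4 and 6 and 9.58 and 10.35 in controls 3 and 4, against 6.88 to 8.39 (median 7.79), and its difference was 1.88 (SE 0.30). Unlike Tcf7l2 and Gbx2, it was about as high in mutant 6 as in mutants 2 and 4. Chrna4 and Grm4 differed by 1.44 (SE 0.32) and 1.42 (SE 0.29). Cacna1g differed by 0.60 (SE 0.18) with overlap, and no other member reached 0.5.

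Within the Wnt pathway, in which Tcf7l2 acts as the DNA-binding partner of beta-catenin, 24 genes were read. None was called higher and 1, Wnt7b, lower, with a median of 0.21. After Tcf7l2 itself the largest differences belonged to the receptor Fzd10 (1.06, SE 0.26) and the antagonist Nkd2 (-0.97, SE 0.25), both with overlap. Axin2, a widely used transcriptional target of the pathway, differed by 0.18 (SE 0.11), and Ctnnb1, beta-catenin, by 0.03 (SE 0.08). The ligand Wnt7b was 9.24, 8.51 and 9.17 in mutants 2, 4 and 6 and 9.53 and 8.54 in controls 3 and 4, against 9.54 to 10.09, a difference of -0.74 (SE 0.20).

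Because Tcf7l2 binds the core sequence CTTTGA, promoters of the thalamus and striatum genes were searched for it on both strands in RefSeq windows (GRCm38.p6) from 250 bases before to 50 after each annotated start. It was found in 17.4% of 23 thalamus windows, 13.3% of 15 striatum windows and 16% of all 32851 windows, so that neither list stood out from the background. The stretches from Prkcd and Zfhx3, a homeobox gene among the thalamus genes, are shown as examples of what was counted, with 20 flanking bases on each side and the match in capitals, given on the strand of the gene. Prkcd holds the reverse complement, TCAAAG, with its first base at position -139 from the start (chr14:30626322-30626367, minus strand), and in Zfhx3 the match begins at position -146 (chr8:108714478-108714523, plus strand).
Prkcd: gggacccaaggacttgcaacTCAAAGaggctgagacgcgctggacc
Zfhx3: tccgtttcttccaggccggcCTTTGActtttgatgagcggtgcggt

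Oligodendrocyte genes were higher as a group by a smaller amount. Of 27 genes, 24 differences were positive, 8 were called higher (22 without mutant 6), and the median was 0.86. Aspa, the aspartoacylase of oligodendrocytes, was 6.97, 7.25 and 5.89 in mutants 2, 4 and 6 and 6.05 and 6.46 in controls 3 and 4, against 4.51 to 5.76 (median 5.04), a difference of 1.37 (SE 0.28). Trf, which encodes transferrin, and Cnp, a myelin phosphodiesterase, differed by 1.32 (SE 0.22) and 1.24 (SE 0.22). The other genes called were Opalin, Mog, Ppp1r14a, Plekhb1 and Qdpr, at 0.60 to 0.98. Mutant 4 had the highest list mean (0.92), and mutant 6 (-0.14) fell between mutant 1 (-0.10), the highest low-side animal, and mutant 3 (-0.26). Genes of oligodendrocyte precursors did not share the shift: 0 of 5 were called, the median was -0.06, and Pdgfra, their receptor for platelet-derived growth factor, differed by 0.02 (SE 0.16).

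**Figure D3:**
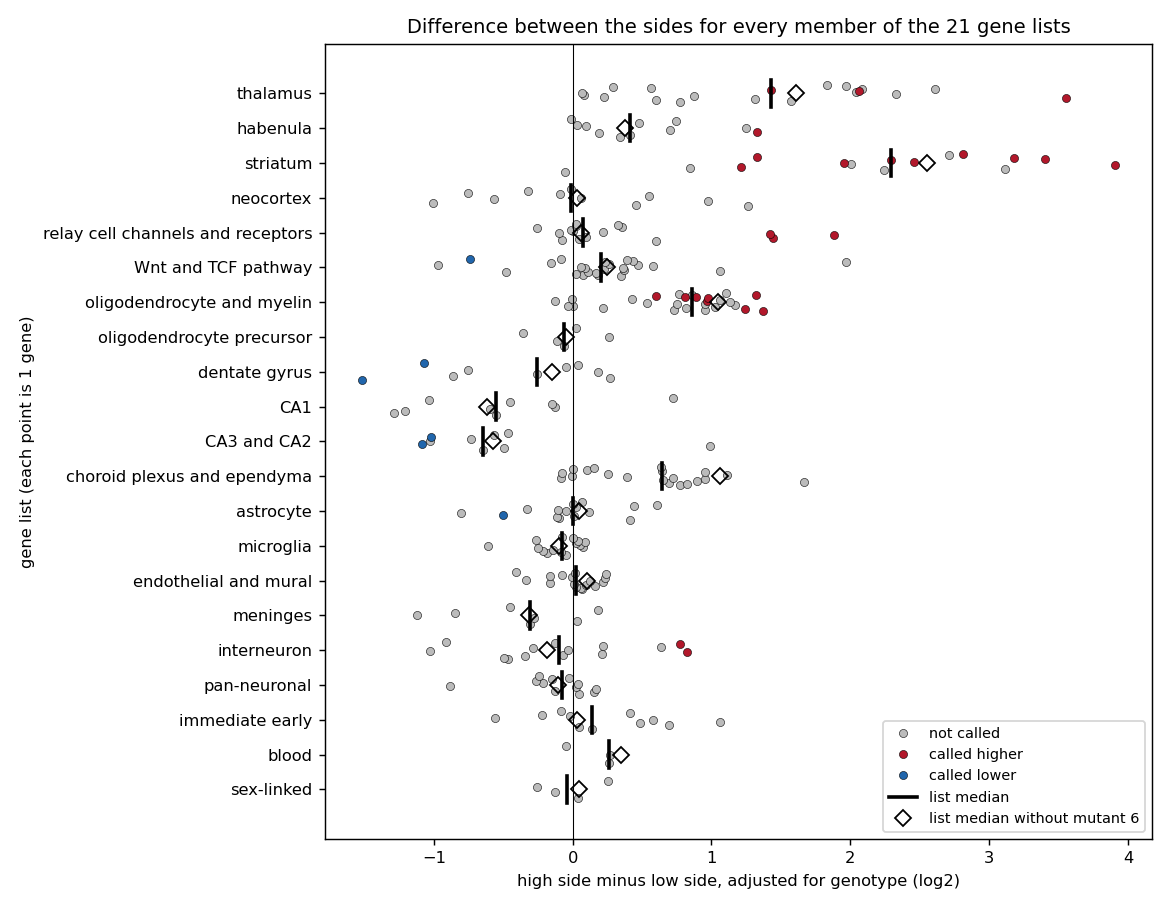
Difference between the sides in log2 units, adjusted for genotype (horizontal axis), for every gene of the 21 lists (vertical axis). Points called higher are red and points called lower blue, thick bars mark the list medians and open diamonds the medians without mutant 6, with medians of 2.29 for striatum, 1.43 for thalamus and 0.86 for oligodendrocytes and negative medians for dentate gyrus, CA1 and CA3 with CA2.

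Prox1 of the dentate gyrus, Fibcd1 of CA1 and Grik4 of CA3 were detected in all 11 animals, whereas Tdo2 and Stxbp6 of the dentate gyrus list were detected in 0 of 11. The medians of the hippocampal lists were negative and smaller in size than the striatum and thalamus medians. In the dentate gyrus list 2 of 9 genes were called lower and the median was -0.26. C1ql2, a secreted organiser of mossy fibre synapses, was 11.61, 10.10 and 9.88 in mutants 2, 4 and 6 and 11.57 and 10.95 in controls 3 and 4, against 11.89 to 12.84 (median 12.28), a difference of -1.51 (SE 0.32). Trpc6, a cation channel of granule cells, differed by -1.07 (SE 0.22). Prox1, the transcription factor that defines granule cells, was 8.39, 8.24 and 6.84 in mutants 2, 4 and 6, 8.21 in controls 3 and 4, and 8.23 to 10.11 on the low side, and its difference of -0.75 (SE 0.33) came with overlap. For this list mutant 6 was not intermediate but the most extreme: its list mean of -0.82 was the lowest of all 11 animals.

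Among 9 CA1 genes 8 differences were negative and 0 were called, with a median of -0.55. Fibcd1, a CA1 marker, ranged from 9.52 to 12.07 on the high side and from 11.69 to 12.30 on the low side, and control 3 alone overlapped. It differed by -1.28 (SE 0.32), Lefty1 by -1.21 (SE 0.27) and Spink8 by -1.04 (SE 0.33). Wfs1, a gene of CA1 that striatal and cortical neurons also express, was the exception at 0.73 (SE 0.20). In the CA3 and CA2 list 2 of 9 genes were called lower and the median was -0.65. Grik4, a kainate receptor subunit of CA3, was 6.77, 5.78 and 6.35 in mutants 2, 4 and 6 and 6.74 and 6.62 in controls 3 and 4, against 7.05 to 8.04 (median 7.54), a difference of -1.08 (SE 0.22). Npy2r, a presynaptic neuropeptide Y receptor, differed by -1.02 (SE 0.23), Iyd by -1.03 (SE 0.29), and Cacng5, a CA2 gene, by 0.99 (SE 0.26), the last 2 with overlap. In bulk tissue a smaller share of cells of one type and less RNA per cell of that type cannot be told apart.

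General neuronal and glial genes lay close to equal. Medians were -0.08 for 12 pan-neuronal genes, 0.00 for 15 astrocyte genes, -0.08 for 15 microglia genes and 0.02 for 17 endothelial and mural genes, and of these only Fgfr3, an astrocyte growth factor receptor, was called (-0.50, SE 0.11). Gfap, the astrocyte intermediate filament, differed by -0.81 (SE 0.23) with overlap. The transmitter genes pointed in opposite directions. Slc17a7, the vesicular glutamate transporter of hippocampal and cortical neurons, was 11.43, 10.04 and 11.73 in mutants 2, 4 and 6 and 11.19 and 11 in controls 3 and 4, against 11.71 to 12.22, a difference of -0.89 (SE 0.26), and mutant 6 overlapped with mutant 3. Gad2, which makes GABA, and Slc32a1, which loads it into vesicles, were both called higher at 0.82 (SE 0.20) and 0.77 (SE 0.15). They belong to the interneuron list, in which 5 of 14 differences were positive and 9 negative, with a median of -0.10. Gad1, which also makes GABA, overlapped (11.98 to 13.06 against 12.13 to 12.51), and so did Pvalb (11.83 to 13.33 against 11.63 to 12.04). Among interneuron peptides Sst differed by -0.13 (SE 0.15), Npy by -0.28 (SE 0.29), Cck by -0.49 (SE 0.21) and Vip by -0.91 (SE 0.44), and the serotonin receptor subunit Htr3a differed by -1.02 (SE 0.26), all with overlap.

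Choroid plexus and meningeal markers varied within both sides. Ttr, the choroid plexus transport protein, ranged from 9.39 to 14.75 on the high side and from 9.30 to 14.70 on the low side, and of 20 choroid plexus and ependyma genes 0 were called although the median was 0.65. The list mean was 1.11, 1.47 and -1.25 in mutants 2, 4 and 6, 1.40 in control 4, -1.04 in control 3 and 1.56 in mutant 1 of the low side, with the other low-side animals at -1.15 to -0.14. Choroid plexus signal was thus high in 3 of the 4 animals with high thalamic signal, and its part in the differences was not tested. Of 11 habenula genes, 10 differences were positive, 1 was called higher and the median was 0.41. Control 4 had the highest list mean, 1.26 against -0.08 to 0.13 in the rest of the high side and -0.36 to -0.12 on the low side. Gng8, the gene called (1.33, SE 0.43), a G protein subunit of habenular neurons, was 8.61 in control 4, 5.94 to 6.54 in the other high-side animals and 4.95 to 5.84 on the low side. Irx2, a homeobox gene, was 6.01, 5.58 and 4.46 in mutants 2, 4 and 6 and 4.76 and 7.02 in controls 3 and 4, against 4.12 to 4.69, so that it was high in mutants 2 and 4 as well as control 4. Tac2, the neurokinin B precursor, was 7.43 in control 4 and mutant 4 and 7.41 in mutant 6, with 5.71 in mutant 2, 6.54 in control 3 and 5.59 to 6.87 on the low side. Pou4f1, the transcription factor of habenular neurons, was detected in control 4 and in no other animal. Meningeal genes were highest in mutant 3 (list mean 1.00), with 0 of 7 called, 2 positive and 5 negative differences and a median of -0.30. Dcn differed by -1.12 (SE 0.38) and Lum by -0.85 (SE 0.21), both with overlap. A dimmer probe of Lum differed by -1.12 (SE 0.20) without overlap.

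The 15 named genes with the largest positive differences included 6 of the striatum list (Isl1, Rgs9, Scn4b, Tac1, Ppp1r1b, Rarb) and 2 of the thalamus list (Gbx2, Ramp3). The remaining 7 were on none of the 21 lists. Ido1, an enzyme of tryptophan breakdown, differed most of all, by 4.10 (SE 0.61), with 8.73, 9.74 and 7.58 in mutants 2, 4 and 6, 10.15 and 10.67 in controls 3 and 4, and 4.45 to 7.02 (median 5.04) on the low side. Klk6, a protease of oligodendrocytes, followed at 3.11 (SE 0.39), Sh3rf2 at 2.99 (SE 0.44), the serotonin receptor Htr1d at 2.81 (SE 0.37), the synaptic vesicle priming gene Unc13c at 2.76 (SE 0.42), Slc35d3 at 2.45 (SE 0.38), and the keratin gene Krt12 at 2.43 (SE 0.29). Mutant 6 was the lowest high-side animal in 14 of the 15. The exception was Krt12, for which mutant 6 at 10.14 was the highest and the others ran from 9.11 to 9.66. Ramp3, an accessory protein of peptide receptors, entered through a dim probe that no low-side animal was detected with, and at its brightest probe it overlapped.

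On the other side, the 15 largest negative differences ran from -1.52 to -1.14 and only C1ql2 was on a list. Slc26a4, an anion exchanger, was 8.95, 7.39 and 8.22 in mutants 2, 4 and 6 and 9.30 and 8.63 in controls 3 and 4, against 9.81 to 10.50 (median 10.02), a difference of -1.52 (SE 0.24). Cabp7, a calcium-binding protein, Popdc3 and Olfml2b differed by -1.44 (SE 0.29), -1.39 (SE 0.24) and -1.36 (SE 0.21). Tnfaip8l3 had the narrowest spread, with 5.45 to 5.90 against 6.58 to 7.18 and a difference of -1.27 (SE 0.13). Also lower were the neuronal pentraxin Nptx1 (-1.24, SE 0.22), the relaxin-3 receptor Rxfp3 (-1.23, SE 0.29), the angiotensin-(1-7) receptor Mas1 (-1.21, SE 0.23) and the semaphorin receptor Nrp1 (-1.16, SE 0.22). Among these 15 genes mutant 6 was the high-side animal nearest the low side in 1, against 14 of the 15 genes that were higher, and it was the lowest animal in 7. Mutant 5 was the low-side animal nearest the high side for Slc26a4, Htra4 and Nrp1, against 13 of the 15 genes that were higher.

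The same genes could be read within each genotype. Among the 6 mutants alone and the 5 controls alone, the median difference of the striatum list was 1.56 and 3.21, of the thalamus list 1.17 and 1.74, of the oligodendrocyte list 0.82 and 0.90, of the dentate gyrus list -0.12 and -0.44, of the CA1 list -0.50 and -0.61, and of the CA3 and CA2 list -0.77 and -0.54. Each of these lists thus had the same sign in both genotypes. The difference was larger in size in controls for 14 of 15 striatum genes, 16 of 19 thalamus genes, 20 of 27 oligodendrocyte genes and 8 of 9 dentate gyrus genes. In the CA1 list and in the CA3 and CA2 list this held for 4 of 9 genes each. Mutants 6 and 5, the animals nearest the division, were both mutants. Among the 7 animals with the lower and the 4 with the higher animal numbers in the sample labels, the striatum medians were 2.73 and 1.45, the thalamus medians 1.5 and 1.23 and the oligodendrocyte medians 0.87 and 0.95. The dentate gyrus medians were -0.35 and -0.14, the CA1 medians -0.56 and -0.70, and the CA3 and CA2 medians -0.40 and -1.19, so that the CA3 and CA2 difference was larger in size among the higher-numbered animals. What the numbers stand for beyond naming the animals is not given in the sources used here, and mutant 6 is 1 of 2 high-side animals in the second block.

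**Figure D4:**
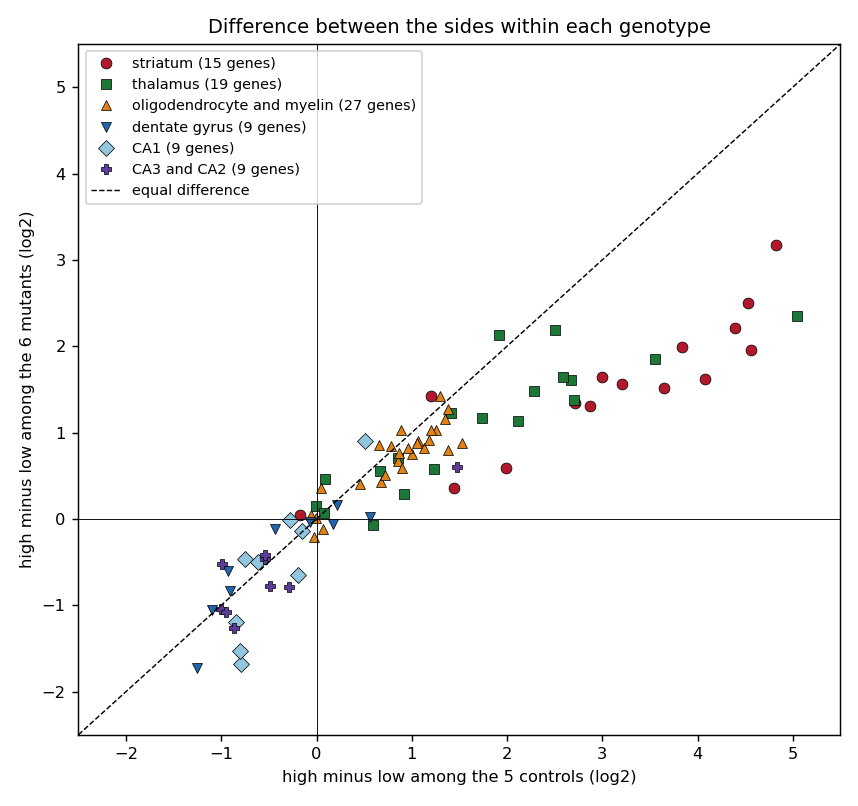
Difference between the sides among the 5 controls (horizontal axis, log2) and among the 6 mutants (vertical axis, log2) for the genes of 6 lists, with the dashed line at equality. Of the 15 striatum genes 14 are larger in controls, as their medians of 3.21 and 1.56 show, and so are 16 of the 19 thalamus genes. Oligodendrocyte genes lie near the line, with 20 of 27 larger in controls.

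The genotype contrast was not used to divide the animals, so it was tested, with the side as covariate. Rrn3, the gene deleted in the mutants, had mean signals of 7.78 in mutants and 8.30 in controls of the high side and of 7.89 and 8.44 on the low side. All 6 mutants lay under all 5 controls, and the difference was -0.53 (SE 0.06) with the side and -0.55 (SE 0.07) without it. Whether the probe lies in the deleted part is not given in the sources used here. Its adjusted p in limma was 0.0965 with the side and 0.152 without it. Arsi, an arylsulfatase gene, had mean signals of 7.43 in mutants and 4.64 in controls of the high side and of 7.01 and 4.83 on the low side, a difference of 2.45 (SE 0.24, limma adjusted p = 0.0421), and 2.47 (SE 0.23, limma adjusted p = 0.0154) without the side. Leaving out 1 animal ended the call of Arsi (limma adjusted p = 0.0828 to 0.247) for each animal but mutant 3, without which it was 0.00906. In an exact two-sided permutation test of genotype within sides, both genes gave p = 0.005, the smallest value that 200 arrangements allow.

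**Figure D5:**
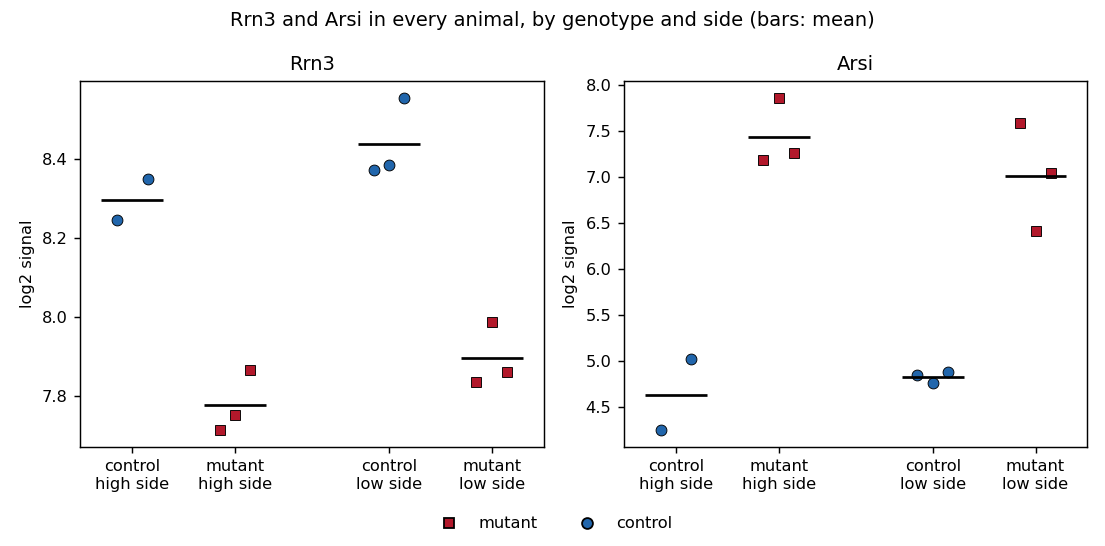
Log2 signal of Rrn3 and Arsi (vertical axes) in every animal, by genotype and side, with bars at the means. Mutants lie below controls for Rrn3 and above them for Arsi on both sides, with within-side differences of -0.52 and -0.54 for Rrn3 and 2.80 and 2.18 for Arsi.

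Adding the side changed little in the count of genotype differences. At an unadjusted p under 0.001, 43 probes (0.0953%) differed between mutants and controls with the side in the limma model, 20 higher and 23 lower in mutants, against 38 without it, 24 higher and 14 lower, and 30 probes were in both counts. Limited to probes detected in at least 5 animals, the counts were 16 and 11. None of these counts exceeded what a threshold of 0.001 passes by chance. At an adjusted p under 0.05 only Arsi remained in each model. Among the other named probes with the smallest p-values were Lgals4, a galectin, at 0.78 (SE 0.13), Pcdhb1, a protocadherin, at 0.45 (SE 0.07), and Jph1, which ties the endoplasmic reticulum to the plasma membrane, at -0.51 (SE 0.09). With the side, each had a limma adjusted p of 0.816. The median residual SD over probes detected in at least 5 animals was 0.28 with genotype alone and 0.27 with the side added. For genes of the lists that guided the division such a fall follows from the way the animals were chosen, and it is given as a description: from a median of 1.53 to 0.79 in the striatum list and from 0.93 to 0.59 in the thalamus list. In the dentate gyrus list it went from 0.61 to 0.41. A test of whether the genotype difference itself differed between the sides (limma interaction term) gave 0 probes at an adjusted p under 0.05, 37 at an unadjusted p under 0.001 and 1447 at an unadjusted p under 0.05. Neither count at an unadjusted p exceeded what its threshold passes by chance. The smallest p-values belonged to Insig1, a regulator of sterol synthesis, with an interaction of 1.04 (limma adjusted p = 0.35), and the striatal receptor Gpr6, with -1.40 (limma adjusted p = 0.67). Insig1 was detected in 5 animals. Gpr6 belongs to the striatum list and was detected in 4 animals, all on the high side, so its low-side values lay near background.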

How the data were processed

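Hippocampal RNA of 6 mutants and 5 controls was profiled on 12 Illumina MouseWG-6 v2 BeadChip arrays. The authors deposited for each array an intensity per probe, not normalized, with a detection p-value, and separately log2 values that they had background subtracted and quantile normalized. They used the BeadArray package for quality control and limma for their tests, with no version given in the sources used here. Of 46089 lines, 954 carried no probe name and were used only for the background, which left 45135 probes. The platform annotation names 1 gene for 34773 probes, several for 18 and none for 10344; only the first were named. In R 4.3.3 with limma 3.58.1, the normexp correction took its background from the detection p-values (offset 16), and quantile normalization and log2 followed. Mutant 6 entered as the mean of its arrays. The model for each probe held side and genotype. A fold against animals without detection is a bound against the lowest detected signal.

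The division of the animals, the 21 gene lists (273 genes with a named probe) and the choice of tests were made with earlier results of these data known. Listed genes were read at their brightest probe. Genes picked for naming were the markers Tcf7l2, Prkcd and Mbp, and Rrn3 and Arsi. The 15 largest positive and the 15 largest negative differences were added, among probes that were detected in every animal of a side and did not overlap. From each list came up to 3 members with the largest difference, detected in at least 5 animals. Other members were named after their values were seen. Not every gene picked is named in the text. Among those left out, Clic6 of the choroid plexus differed by 1.67 (SE 1.13) and the immediate early gene Egr2 by 1.06 (SE 0.68), both with overlap, and Cidea by -1.14 (SE 0.22) without it. Of 33 picked genes with several detected probes, 3 had a probe of opposite sign. No test was made between the sides. Genotype was tested with limma (Benjamini-Hochberg over all probes) and by exact permutation within sides. The labels do not say that samples of one group came from separate litters or days, so p-values measure the spread between these animals only. The steps were tested on simulated data. Precision is limited by how few arrays there are. Alternatives were cyclic loess, omission of the background correction, the log2 values as deposited, 1 animal left out, either array of mutant 6, the block of animal numbers, filters, no size limit, other probe choice, the mean of the thalamus list in place of the side, no genotype term and a replicate block.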

Additional observations from a re-analysis of the deposited data

Results flagged for a closer look

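Of 222 groups of values examined (90 transcripts picked for naming and 21 list means on each side), 20 held 1 animal that lay far from the others of its side. Chance sets apart about 1 in 20 such groups, and genes of a list move together, so that values of one animal are not separate observations.

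On the high side mutant 6 stood apart low for Tcf7l2 (6.62, the nearest animal at 9.09) and Slc17a6 (10.48, nearest 11.64), and mutant 4 low for Nptx1 (5.67, nearest 6.92). Control 4 stood apart high for Gng8 (8.61, nearest 6.54) and for the mean of the habenula list (1.26, nearest 0.13), and low for Xist (4.76, nearest 9.84).

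On the low side mutant 5 stood apart high for Klk6 (6.16), Sh3rf2 (5.5) and the mean of the striatum list (-0.38, nearest -1.05). Mutant 3 was set apart for Tek (7.58), Slc6a13 (9.55), Xist (4.25, low) and the means of the meninges (1.00), endothelial and mural (0.33) and relay cell (-0.05) lists. Mutant 1 was set apart for Kcne2 (9.0), Uty (4.73, low), the choroid plexus and ependyma list (1.56) and the oligodendrocyte precursor list (-0.33, low), and control 2 for Rxfp3 (9.49).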

How the results depend on the processing

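With 25 alternatives, 234 of 267 recomputed values kept their direction and their side of the threshold or stayed near the first value. A reversal could be recorded only for list medians of at least 0.5 in size and for Rrn3 and Arsi, and 0 of these reversed. Counts could not reverse. The neocortex median, near 0, changed sign in several settings (0.03 without mutant 6). Against 332 probes called higher and 221 lower, the deposited log2 values gave 214 and 90, no background correction 197 and 90, and no limit on size 407 lower. Leaving out 1 animal gave 339 to 627 higher and 228 to 361 lower, with both maxima without mutant 6. The median of the striatum list (2.29) became 1.66 with the deposited values, 1.55 without background correction, 1.56 within mutants and 3.21 within controls, and the thalamus median (1.43) became 1.03, 0.95, 1.17 and 1.74 in the same order. On leaving out 1 animal they ran from 1.99 to 2.55 and from 1.15 to 1.62, and over all settings the neocortex median stayed near 0 (-0.10 to 0.06). For genotype, 38 probes without the side became 11 among probes detected in at least 5 animals (31 to 51 on leaving out 1 animal), and 43 with the side became 16 (31 to 65, the most without mutant 3). The interaction count of 37 became 24 with the deposited values and 23 without background correction.

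The limma adjusted p of Arsi rose above 0.05 with the deposited values (difference 1.11, adjusted p = 0.0643), without background correction (1.03, adjusted p = 0.151), with array 1 of mutant 6 only (2.42, adjusted p = 0.055), and with the animal number block (2.38, adjusted p = 0.167), and its difference was 2.26 to 2.64 on leaving out 1 animal. Over all alternatives its adjusted p ran from 0.00215 to 0.247. Rrn3 passed it without background correction (-0.40, adjusted p = 0.0447) and with array 2 of mutant 6 only (-0.56, adjusted p = 0.0451), and reached 0.805 at most. The causes were not tested. Replicate numbers were not treated as pairs in the main model. Same-numbered animals deviated together with r of 0.26, 0.56 and 0.54 for replicates 1, 4 and 5, and of -0.05 for replicates 2 and 3. The animals of replicates 1, 4 and 5 shared a side, and those of replicates 2 and 3 did not. With a replicate block the genotype counts were 39 without and 60 with the side, Rrn3 differed by -0.55 (limma adjusted p = 0.632) and Arsi by 2.46 (limma adjusted p = 0.148).

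At their brightest probe 7693 of the 19031 genes were detected in fewer than 5 animals, which limits what can be read from them.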
